A study of Mus musculus with 20 samples.

Results

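The genes of the voltage-gated sodium and calcium channels were followed in the hippocampus of adrenalectomized mice. They were chosen by symbol, as every gene named as an Scn pore or beta subunit, a Cacna1 pore subunit, or a Cacna2d, Cacnb or Cacng auxiliary subunit, which gave 40 genes of 57126 gene identifiers. The 40 are 10 sodium pore genes, 4 sodium beta genes, 10 calcium pore genes, 4 alpha2delta genes, 4 calcium beta genes and 8 gamma genes. The rule used symbols alone and no measured value, but it was set with earlier results of these data known.

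Each of the 20 libraries came from the hippocampus of a male C57BL/6 mouse whose adrenal glands had been removed at about 2.5 months of age. Homozygous GRA knockin mice carry an exon 2 of Nr3c1, the glucocorticoid receptor gene, in which the start codons of the N-terminally shorter receptor forms are mutated and that of the full-length form, GRA, is kept. Wild-type mice carry the unmodified gene. The exon is replaced in every cell type, not in neurons alone. At 2 weeks after surgery, 5 knockin and 5 wild-type mice received the synthetic glucocorticoid dexamethasone (Dex) at 1 mg per kg, and 5 knockin and 5 wild-type mice received the vehicle, phosphate-buffered saline (PBS), by intraperitoneal injection. Tissue was taken 6 h later, so every group lacked adrenal hormone and differed in receptor gene and in injection. The design asks how the tissue responds to the drug and whether the response needs the shorter receptor forms.

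Voltage-gated channels open when the membrane depolarizes. The pore subunit carries the ion selectivity and the voltage sensor: sodium channels carry the upstroke of the action potential, and calcium channels turn depolarization into transmitter release, dendritic calcium entry and gene regulation. The auxiliary subunits change how many channels reach the membrane and how they gate. Several gamma subunits act instead as TARPs, proteins that bring AMPA-type glutamate receptors to the synapse and slow their closing. In the hippocampus, glucocorticoids are known to act on calcium currents and on AMPA receptor traffic.

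Libraries held 11493014 to 48267708 read pairs assigned to genes. Levels are given as CPM, the count divided by the library total after TMM scaling and brought to a common total, and levels of different genes are compared only after division by exon length (CPM per kb). Neuron marker genes summed to 7298 to 7542 CPM in knockin Dex, 6979 to 7858 in knockin PBS, 7159 to 7708 in wild-type Dex and 6937 to 7439 in wild-type PBS libraries. Liver markers were highest in wild-type PBS replicates 1 and 2 (159 and 98.9 CPM, against at most 38.0 CPM in the other libraries). Choroid plexus markers were highest in knockin Dex replicate 2 and wild-type PBS replicate 4 (1411 and 1776 CPM, against at most 599 CPM). Nr3c1 itself averaged 112 ± 8.69, 163 ± 24.1, 98.6 ± 8.27 and 136 ± 21.8 CPM (SD, n = 5 each) in knockin Dex, knockin PBS, wild-type Dex and wild-type PBS mice. Mutated start codons leave its RNA countable, so this level does not check the genotype.

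Of the 40 genes, 35 passed the filter on low counts. The other 5 were all but silent: Scn4a and Cacna1s, the pore genes of skeletal muscle, had 49 and 78 read pairs over all 20 libraries, the sensory neuron genes Scn10a and Scn11a had 8 and 15, and Cacng1, the muscle gamma subunit, had 15. No library held more than 9 read pairs of any of them, and no test was made. Such totals show that these genes were not detectable above a few read pairs at this depth, not that they are absent. The retinal pore gene Cacna1f passed the filter with 197 read pairs in all.

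Among the sodium pore genes, the brain genes Scn2a, Scn8a, Scn1a and Scn3a made up nearly all of the family. Per exon length, averaged over the 20 libraries, Scn2a was at 42.3 ± 2.12 (SD) CPM per kb, Scn8a at 34.5 ± 2.08, Scn1a at 13.9 ± 0.971 and Scn3a at 8.44 ± 0.530. Scn2a is the axonal channel of excitatory neurons, Scn8a the channel of the mature axon initial segment and the nodes of Ranvier, Scn1a the main channel of many inhibitory interneurons, and Scn3a a channel best known from the embryonic brain. Each of these 4 was above the next in all 20 libraries, although the ranges of Scn2a and Scn8a over the libraries met. Scn2a held 42.2% ± 1.34 of the family's per-length level, Scn8a 34.5% ± 1.29, Scn1a 13.8% ± 0.580 and Scn3a 8.42% ± 0.428 (SD, n = 20). Scn7a, which encodes an atypical sodium-sensing channel, and Scn9a of sensory neurons lay far below, at 0.458 and 0.362 CPM per kb, and their ranges overlapped.

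Of the sodium beta genes, Scn2b and Scn3b stood higher per length, on average, than any pore gene. Scn2b at 66.9 ± 2.17 and Scn3b at 62.2 ± 13.4 CPM per kb (SD, n = 20) did not differ in order, with Scn2b higher in 10 of 20 libraries. Scn4b, which makes a blocking particle for resurgent current, was at 5.21 ± 0.967 CPM per kb. The gap between these beta genes and the pore genes rests on the annotated exon lengths, 4656 bases for Scn2b against 9077 for Scn2a.

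Calcium pore genes were led by Cacna1e, the R-type channel, at 34.3 ± 2.10 CPM per kb (SD, n = 20), or 30.3% ± 0.992 of the family. Cacna1a (P/Q-type) at 18.8 ± 0.868, Cacna1h (T-type) at 15.8 ± 1.80 and Cacna1b (N-type) at 14.5 ± 0.787 CPM per kb came next, and the ranges of these neighbours overlapped. The L-type gene Cacna1c was at 8.53 ± 0.459, the T-type genes Cacna1i and Cacna1g at 7.91 ± 0.450 and 7.81 ± 0.711, and the other neuronal L-type gene, Cacna1d, between 4.78 and 5.70 CPM per kb. Cacna1i was above Cacna1g in 12 of 20 libraries, so the order of these T-type genes was not resolved. Cacna1f was at 0.0676 CPM per kb.

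The auxiliary calcium channel genes were each dominated by a few members. Cacna2d1 and Cacna2d3 were at 32.0 ± 1.48 and 29.0 ± 1.44 CPM per kb (SD, n = 20), with Cacna2d1 higher in 19 of 20 libraries, and Cacna2d2 and Cacna2d4 were at 4.47 and 0.278 CPM per kb. Cacnb3 held 51.5% ± 1.49 of the calcium beta family, before Cacnb1 (24.4% ± 0.903), Cacnb4 (12.9% ± 0.923) and Cacnb2 (11.1%, range 8.57% to 13.4%). Of the gamma genes, Cacng8, a TARP known to be enriched in the hippocampus, held 41.1% ± 1.24 and Cacng7 32.2% ± 1.37 of the family. Cacng3 and Cacng2 followed at 23.3 and 13.1 CPM per kb, then Cacng4 at 7.26, Cacng5 at 2.54 and Cacng6 at 0.777 CPM per kb.

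**Figure D1:**
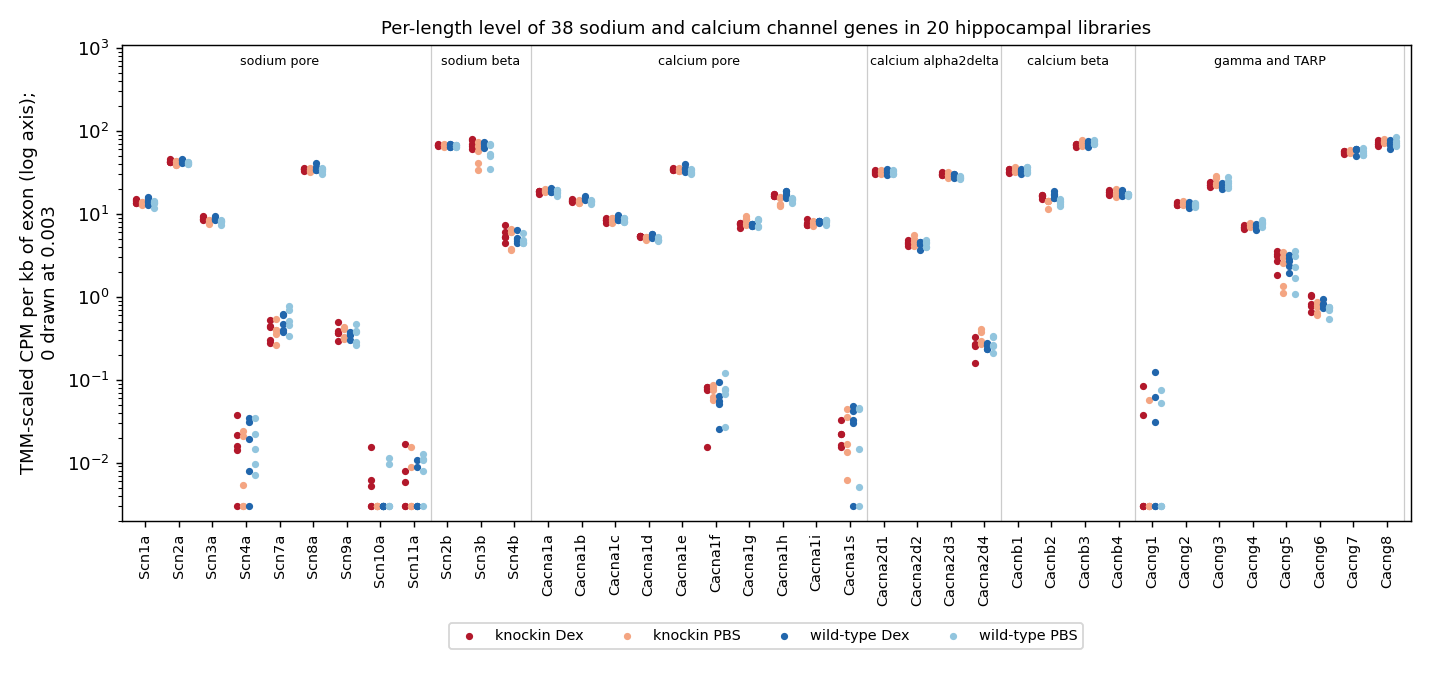
Per-length level (TMM-scaled CPM per kb of exon, log axis) of 38 of the 40 channel genes by family, with 1 point per library in 4 colours, knockin Dex and PBS before wild-type Dex and PBS. The groups of most genes lie on top of each other, while Scn3b and Cacng5 spread widest among the genes above 1 CPM per kb.

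At 6 h after dexamethasone, a small set of channel genes was higher than after PBS, and the changes were small. In knockin mice 3 of the 35 tested genes passed edgeR's quasi-likelihood test (called, at a Benjamini-Hochberg adjusted p under 0.05), all higher: Scn3a, Cacna1h and Cacnb2. In wild-type mice 5 of 35 were called, all higher: the same 3 with Cacna1b and Cacna1d. The background among the 18648 tested genes was 10% called in knockin mice (5.28% higher, 4.71% lower) and 9.21% in wild-type mice (5.27% higher, 3.94% lower), and 8.57% and 14.3% of the channel genes were called. The wild-type count was 2 of 35 without wild-type PBS replicate 3, without wild-type Dex replicate 1 or with no filter on low counts, and 3 without wild-type PBS replicate 5 or wild-type Dex replicate 5. The knockin count was 1 without knockin PBS replicate 1 or with no filter, so neither share is read as standing apart from the background. The median log2 fold change of the 35 was 0.02 in knockin and 0.07 in wild-type mice, where all genes had medians of 0.0015 and -5e-04. Tissue was sequenced in bulk, so a change in the number of cells of a type and a change in RNA per cell cannot be told apart.

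Cacnb2, a cytoplasmic beta subunit that binds the pore and carries it to the membrane, changed most among the called genes of wild-type mice. In knockin mice Cacnb2 had 73.3, 78.4, 81.8, 80.8 and 78.4 CPM after Dex, against 69.3, 68.6, 55.8, 69.3 and 69.8 CPM after PBS. Wild-type mice had 91.8, 83.4, 74.7, 81.2 and 74.3 CPM after Dex, against 73.0, 68.5, 60.8, 67.1 and 64.2 CPM after PBS. All 5 Dex libraries of each genotype were above all 5 PBS libraries, and knockin PBS replicate 3 was the lowest of the 20. The log2 fold change was 0.24 ± 0.063 (SE) in knockin and 0.28 ± 0.063 (SE) in wild-type mice (edgeR, adjusted p = 0.0147 and 0.00393). Its share of the calcium beta family was 12.1% ± 0.613 in knockin Dex and 10.1% ± 1.00 in knockin PBS mice, and 12.2% ± 1.03 in wild-type Dex and 10.1% ± 1.09 in wild-type PBS mice (SD, n = 5 each). The gene lies at chr2:14609117-14992719 on the plus strand (mm39) and shares no exon with another annotated gene. The call held under every alternative tried in both genotypes, with adjusted p at most 0.0421 when single libraries were left out.

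Cacna1h encodes a T-type pore, which opens near the resting potential and supports burst firing. In knockin mice Cacna1h had 155, 164, 154, 163 and 154 CPM after Dex, against 126, 119, 120.5, 153 and 148 CPM after PBS. In wild-type mice Cacna1h had 179, 178, 148, 154 and 164 CPM after Dex, against 141, 147, 126, 139 and 142 CPM after PBS. The groups did not overlap in either genotype, but the gap was narrow: knockin PBS replicate 4 and wild-type PBS replicate 2 stood just below the lowest Dex library of their genotype. The log2 fold change was 0.25 ± 0.066 (SE) in knockin and 0.24 ± 0.066 (SE) in wild-type mice (edgeR, adjusted p = 0.0169 and 0.0223). The knockin call was lost without knockin PBS replicate 1, 2 or 3 (adjusted p 0.0508 to 0.0574), and the wild-type call without wild-type PBS replicate 3 or wild-type Dex replicate 1 or 2 (adjusted p 0.0652 to 0.0838). Without knockin Dex replicate 2 and wild-type PBS replicate 4, the libraries with the most choroid plexus RNA, adjusted p was 0.0617 in knockin and 0.0543 in wild-type mice, at log2 fold changes of 0.23 and 0.24, and with no filter on low counts it was 0.0525 and 0.0871. The gene is on the minus strand at chr17:25593259-25652759 (mm39), and 1.67% of its exonic bases overlap Tpsg1.

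Scn3a was the single sodium channel gene called in either genotype. In knockin mice Scn3a had 73.3, 78.0, 80.2, 72.7 and 73.8 CPM after Dex, against 67.5, 71.7, 71.6, 68.1 and 65.4 CPM after PBS. In wild-type mice Scn3a had 76.1, 74.2, 71.8, 80.2 and 75.1 CPM after Dex, against 69.6, 71.7, 68.6, 70.5 and 62.7 CPM after PBS. The groups of both genotypes came close without overlapping, and wild-type PBS replicate 5 was the lowest of all. The log2 fold change was 0.13 ± 0.041 (SE) in knockin and 0.14 ± 0.041 (SE) in wild-type mice (edgeR, adjusted p = 0.0379 and 0.0328). The knockin call was lost without knockin PBS replicate 1, 4 or 5, knockin Dex replicate 2 or 3, or wild-type PBS replicate 3 (adjusted p 0.0546 to 0.124), and the wild-type call without wild-type PBS replicate 3 or 5 or wild-type Dex replicate 1, 4 or 5 (adjusted p 0.0583 to 0.127). Both calls were also lost with no filter on low counts (adjusted p 0.0576 in knockin and 0.0878 in wild-type mice) and with the compared libraries alone (0.0658 and 0.0568). The knockin call was lost without wild-type PBS replicates 1 and 2 together (0.0519) and without knockin Dex replicate 2 and wild-type PBS replicate 4 together (0.113). Its neighbour Scn2a, 53.1 kb away on chromosome 2, had log2 fold changes of 0.07 ± 0.040 (SE) in knockin and 0.09 ± 0.040 (SE) in wild-type mice and passed in neither (adjusted p = 0.375 and 0.2).

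Cacna1b, the N-type pore of presynaptic terminals, was called in wild-type mice. In knockin mice Cacna1b had 142, 137, 149, 140.4 and 143 CPM after Dex, against 138, 142, 139, 131 and 133 CPM after PBS. In wild-type mice Cacna1b had 151, 145, 152, 151 and 159 CPM after Dex, against 139, 129, 135, 143 and 141 CPM after PBS. The wild-type groups did not overlap. Knockin Dex replicates 3 and 5 were above every knockin PBS library, and the other knockin Dex libraries lay within the knockin PBS range. The log2 fold change was 0.06 ± 0.036 (SE) in knockin and 0.14 ± 0.036 (SE) in wild-type mice (edgeR, adjusted p = 0.393 and 0.00919). Passing in wild-type mice alone does not show a genotype difference: the difference of the responses was -0.09 ± 0.051 (SE), with a 95% interval of -0.19 to 0.02 and unadjusted p = 0.104 (edgeR). The wild-type call was lost without wild-type PBS replicates 1 and 2, the libraries with liver RNA (log2 0.11, adjusted p = 0.0858).

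Cacna1d, the L-type pore that opens at lower voltages than Cacna1c, was likewise called in wild-type mice. In knockin mice Cacna1d had 64.2, 61.3, 64.6, 64.2 and 64.0 CPM after Dex, against 61.3, 60.4, 59.0, 62.0 and 56.3 CPM after PBS. In wild-type mice Cacna1d had 66.6, 61.4, 59.9, 63.7 and 67.2 CPM after Dex, against 56.6, 56.3, 57.6, 62.7 and 56.9 CPM after PBS. Both pairs of groups overlapped, by knockin Dex replicate 2 at the low end in knockin and by wild-type PBS replicate 4 at the high end in wild-type mice, the libraries with the most choroid plexus RNA. The log2 fold change was 0.09 ± 0.039 (SE) in knockin and 0.14 ± 0.039 (SE) in wild-type mice (edgeR, adjusted p = 0.183 and 0.0201), and the difference of the responses was -0.05 ± 0.055 (SE). The wild-type call was lost without wild-type PBS replicate 2, 3 or 5 or wild-type Dex replicate 1 or 5 (adjusted p 0.0528 to 0.0776), and without wild-type PBS replicates 1 and 2 together (adjusted p = 0.156), with no filter on low counts (0.0859) and with the compared libraries alone (0.061). Of the gene's exonic bases 6.23% overlap other annotated genes, Chdh among them, and read pairs assignable to more than 1 gene were not counted.

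**Figure D2:**
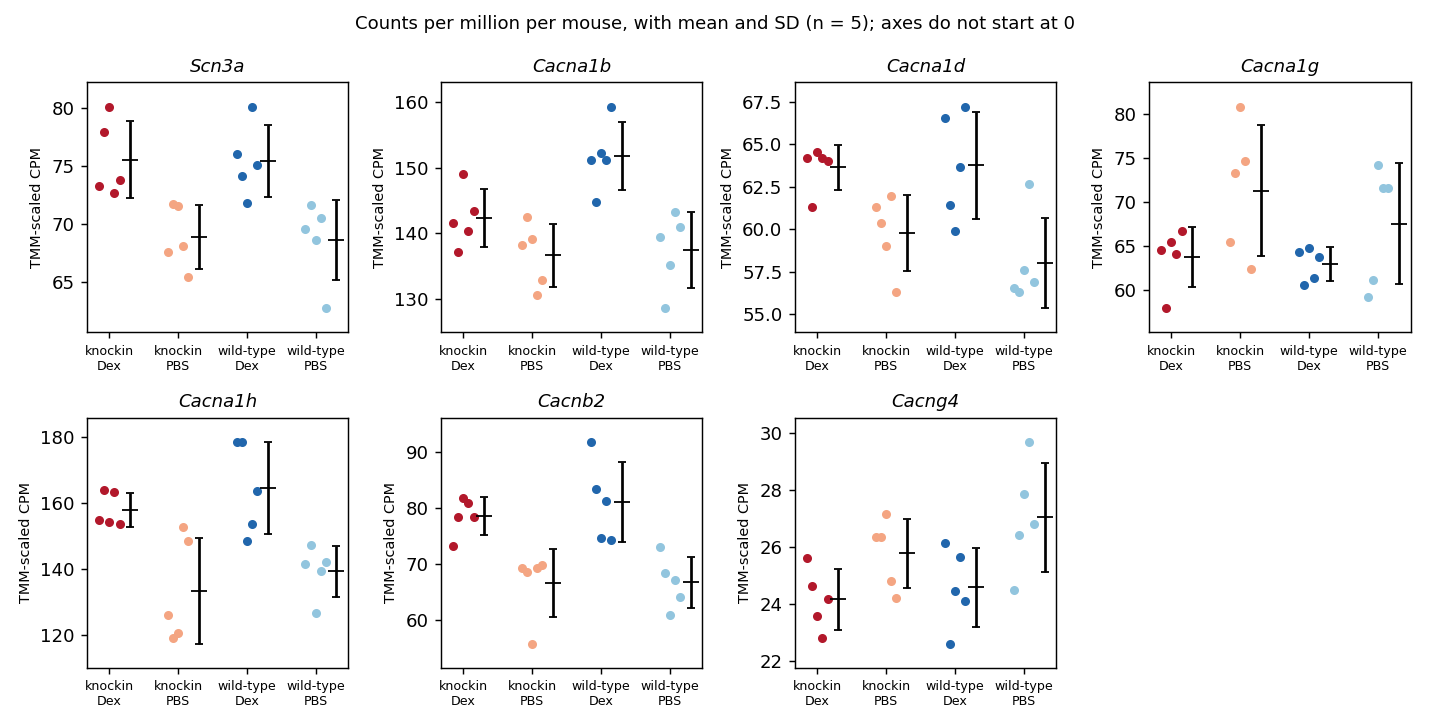
TMM-scaled CPM in each library of the 7 channel genes called in at least 1 Dex comparison, with mean and SD of each group (n = 5); the axes do not start at 0. Points of Cacnb2, Cacna1h and Scn3a after Dex lie above those after PBS in both genotypes, and points of Cacna1g and Cacng4 overlap.

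The windows of 250 bases upstream of the annotated starts of 3 of these genes are shown because the genes were higher after a receptor agonist and their windows were in the sequence table used. Of the 40 genes, 30 matched 41 start windows (RefSeq, GRCm38.p6). Capitals mark AGAACA or its complement TGTTCT, the core hexamer of the glucocorticoid receptor's binding element.
Cacnb2 first start: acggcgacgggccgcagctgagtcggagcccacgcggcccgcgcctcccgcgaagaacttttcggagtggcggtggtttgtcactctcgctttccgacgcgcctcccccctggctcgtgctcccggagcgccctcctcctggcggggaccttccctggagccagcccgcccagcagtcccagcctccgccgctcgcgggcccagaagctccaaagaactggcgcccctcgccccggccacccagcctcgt
Cacnb2 second start: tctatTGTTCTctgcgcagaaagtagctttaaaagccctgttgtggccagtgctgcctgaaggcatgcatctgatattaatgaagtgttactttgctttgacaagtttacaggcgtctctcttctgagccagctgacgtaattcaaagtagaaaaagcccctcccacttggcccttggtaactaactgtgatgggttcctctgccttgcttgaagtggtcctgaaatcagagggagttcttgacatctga
Cacna1d first start: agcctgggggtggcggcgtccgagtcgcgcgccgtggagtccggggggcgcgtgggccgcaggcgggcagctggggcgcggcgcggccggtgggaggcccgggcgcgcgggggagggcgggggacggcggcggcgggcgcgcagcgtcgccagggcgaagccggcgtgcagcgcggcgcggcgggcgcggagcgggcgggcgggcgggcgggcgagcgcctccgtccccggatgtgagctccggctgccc
Cacna1d second start: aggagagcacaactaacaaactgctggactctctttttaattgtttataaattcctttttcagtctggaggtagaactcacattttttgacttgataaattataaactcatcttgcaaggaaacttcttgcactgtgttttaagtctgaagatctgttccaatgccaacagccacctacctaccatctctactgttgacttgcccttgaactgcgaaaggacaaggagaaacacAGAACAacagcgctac
Cacna1b start: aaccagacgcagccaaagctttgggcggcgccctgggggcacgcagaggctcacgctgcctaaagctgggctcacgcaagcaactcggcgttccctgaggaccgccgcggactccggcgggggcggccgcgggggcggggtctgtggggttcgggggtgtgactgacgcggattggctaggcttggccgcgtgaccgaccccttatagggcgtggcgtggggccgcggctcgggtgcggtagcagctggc
Each is written 5′ to 3′ on the strand of its gene. Starts are numbered by rising chromosome position, so on the minus strand the second Cacna1d start lies upstream of the first. On GRCm38.p6 the Cacnb2 windows are chr2:14604056-14604305 and chr2:14823842-14824091 on the plus strand, the Cacna1d windows chr14:30353487-30353736 and chr14:30491157-30491406 on the minus strand, and the Cacna1b window chr2:24763153-24763402 on the minus strand. The hexamer was found, on either strand, in 1 of the 2 Cacnb2 windows and 1 of the 2 Cacna1d windows, and not in the Cacna1b window. Among all 32851 windows of this length 16.1% held it, against 17.1% (7 of 41) of the channel genes' windows. The full palindrome, AGAACA followed after 3 free bases by TGTTCT, was in 3 of 32851 windows (0.00913%) and in none of the 41. The GC box GGGCGG or its complement CCGCCC was in 36.6% of the channel genes' windows and 32.7% of all, and the E-box CACGTG, which reads the same on both strands and overlaps neither, was in 0 of 41 windows and 6.02% of all. The windows with a hexamer had 46.0% GC in Cacnb2 and 39.6% in Cacna1d, and the other windows of these genes 73.2% and 86.4%. A match of letters is not a binding site, and no match says only that these letters are not in this window.

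Averaging the responses of both genotypes, which uses all 20 libraries, 7 of 35 channel genes were called, 5 higher and 2 lower, where 18.2% of all genes were called (9.79% higher, 8.41% lower). The 5 higher were the genes above, with log2 fold changes of 0.26 for Cacnb2, 0.24 for Cacna1h, 0.13 for Scn3a, 0.11 for Cacna1d and 0.10 for Cacna1b (edgeR, adjusted p 0.000122 to 0.00526). These 5 were called under each alternative tried for the mean response.

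The lower genes were Cacna1g, another T-type pore, and Cacng4, a TARP. In knockin mice Cacna1g had 64.6, 57.9, 65.4, 64.0 and 66.7 CPM after Dex, against 65.4, 73.3, 80.9, 74.6 and 62.4 CPM after PBS. In wild-type mice Cacna1g had 64.3, 60.5, 64.8, 61.4 and 63.7 CPM after Dex, against 59.1, 61.2, 74.2, 71.7 and 71.6 CPM after PBS. PBS libraries spread widely and reached below Dex libraries in both genotypes, and the mean log2 response was -0.13 ± 0.046 (SE) (edgeR, adjusted p = 0.0498). Knockin Cacng4 was 25.6, 24.6, 23.6, 22.8 and 24.2 CPM after Dex, against 26.4, 26.4, 27.2, 24.8 and 24.2 CPM after PBS. Wild-type Cacng4 was 26.1, 22.6, 24.5, 25.6 and 24.1 CPM after Dex, against 24.5, 26.4, 27.9, 29.7 and 26.8 CPM after PBS. Its groups overlapped as well, with a mean log2 response of -0.11 ± 0.037 (SE) (edgeR, adjusted p = 0.0353). Both calls sat at the threshold. That of Cacna1g held without wild-type PBS replicate 1 or 2, knockin PBS replicate 1 or 5 or knockin Dex replicate 5, and was lost without any of the other 15 libraries (adjusted p up to 0.0977), by limma-voom (0.0986), with no filter on low counts (0.107) and without knockin Dex replicate 2 and wild-type PBS replicate 4 together (0.15). That of Cacng4 was lost without knockin Dex replicate 3, 4 or 5, knockin PBS replicate 1, 2 or 3, wild-type Dex replicate 2, 3 or 5 or wild-type PBS replicate 3 or 4 (adjusted p up to 0.0735), with no filter (0.0577), with the replicate block (0.0511) and without that pair of libraries (0.0812). Without wild-type PBS replicates 1 and 2 together, Cacna1g and Cacng4 were called lower in wild-type mice. Cacna1g was called lower in knockin mice under that setting and without knockin PBS replicate 5.

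The T-type genes did not move together. Cacna1h was higher after Dex and Cacna1g lower on average, while Cacna1i had log2 fold changes of 0.02 ± 0.046 (SE) in knockin and 0.01 ± 0.046 (SE) in wild-type mice. For the mean response the 95% intervals were 0.15 to 0.34 for Cacna1h, -0.23 to -0.04 for Cacna1g and -0.05 to 0.08 for Cacna1i. Of the other calcium beta genes, Cacnb1, Cacnb3 and Cacnb4 had mean responses of -0.06, -0.06 and 0.05, none past the threshold (adjusted p 0.203 to 0.349). Cacnb1 was called lower without wild-type PBS replicates 1 and 2 together. Summed over the family, calcium beta genes stood at 135 ± 2.92 CPM per kb in knockin Dex and 137 ± 6.23 in knockin PBS mice, and at 138 ± 4.66 in wild-type Dex and 138 ± 5.89 in wild-type PBS mice (SD, n = 5 each).

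No other sodium channel gene was called. Of the high pore genes, Scn8a averaged 429 ± 15.5 CPM in knockin Dex and 416 ± 18.6 in knockin PBS mice, and 443 ± 36.1 in wild-type Dex and 415 ± 24.1 in wild-type PBS mice. Scn1a averaged 119.7 ± 5.79 and 112 ± 4.46 CPM in knockin Dex and PBS mice, and 121 ± 10.8 and 112 ± 8.21 CPM in wild-type Dex and PBS mice (SD, n = 5 each). Scn1a, Scn2a and Scn8a had positive fold changes in both genotypes, and their mean responses of 0.10, 0.08 and 0.07 had adjusted p of 0.0828, 0.0576 and 0.167 (edgeR). Scn2a was called without knockin PBS replicate 2 or 3, wild-type Dex replicate 1 or 2 or wild-type PBS replicate 4. Scn1a was called without wild-type Dex replicate 1, and also without wild-type PBS replicates 1 and 2 together. Summed over the family, sodium pore genes stood at 102 ± 1.83 CPM per kb in knockin Dex and 97.5 ± 1.04 in knockin PBS mice, and at 104 ± 5.72 in wild-type Dex and 97.2 ± 3.67 in wild-type PBS mice (SD, n = 5 each), a sum that was not tested. The beta gene Scn2b had a mean response of 0.03 ± 0.024 (SE), with a 95% interval of -0.02 to 0.08.

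Scn3b had the largest fold change among the 35 in both genotypes and passed in neither. Knockin Scn3b was 296, 354, 276, 357 and 316 CPM after Dex, against 258, 183, 152, 334 and 299 CPM after PBS. Wild-type Scn3b was 283, 295, 331, 314 and 320.1 CPM after Dex, against 308, 318, 159, 226 and 241 CPM after PBS. Knockin PBS replicates 2 and 3 and wild-type PBS replicate 3 were at about the same low level. Knockin PBS replicate 1 (258 CPM) and wild-type PBS replicates 4 and 5 (226 and 241 CPM) were higher, but below every Dex library. Knockin PBS replicates 4 and 5 and wild-type PBS replicates 1 and 2 lay within the Dex range of their genotype. The log2 fold change was 0.39 ± 0.201 (SE) in knockin and 0.30 ± 0.201 (SE) in wild-type mice (edgeR, adjusted p = 0.298 and 0.455). The mean response of 0.34 ± 0.142 (SE) (adjusted p = 0.114) was called without knockin PBS replicate 4, and also without wild-type PBS replicates 1 and 2 together.

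Among the other calcium pore genes, Cacna1e came closest to a call in wild-type mice. Knockin mice had 535, 537, 510.4, 549 and 518 CPM of Cacna1e after Dex, against 518, 541, 504, 517 and 503 CPM after PBS. Wild-type mice had 532, 492, 552, 537 and 612 CPM after Dex, against 477, 460.1, 514, 536 and 494 CPM after PBS, and the groups overlapped in both. Its log2 fold changes were 0.04 ± 0.045 (SE) and 0.14 ± 0.045 (SE) in knockin and wild-type mice (edgeR, adjusted p = 0.728 and 0.0599), and the wild-type value was called without wild-type PBS replicate 4 or wild-type Dex replicate 2. Cacna1a and Cacna1c had mean responses of 0.03 and 0.04 (adjusted p = 0.627 and 0.506). Of the alpha2delta genes none was called, and Cacna2d1 and Cacna2d3, which make up most of the family, had mean responses of 0.01 ± 0.031 (SE) and 0.05 ± 0.027 (SE).

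Of the gamma genes, 1 of 7 tested was called for the mean response, where 18.2% of all genes were. The hippocampal TARPs Cacng8, Cacng3 and Cacng2 had mean responses of -0.07 ± 0.046 (SE), -0.13 ± 0.054 (SE) and -0.01 ± 0.030 (SE) (edgeR, adjusted p = 0.326, 0.113 and 0.889). Cacng3 was called without wild-type PBS replicate 1, and also without wild-type PBS replicates 1 and 2 together. Cacng7, a type of TARP with smaller effects on receptor traffic, was at 0.02 ± 0.036 (SE), and Cacng5 of the same type at 0.26 ± 0.231 (SE) with a 95% interval of -0.23 to 0.75. Over the 29 genes of at least 1 CPM per kb, fold changes ran from -0.17 to 0.39 in knockin and -0.13 to 0.30 in wild-type mice on the log2 scale, and 22 and 23 of the 95% intervals lay within 0.26 of 0.

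**Figure D3:**
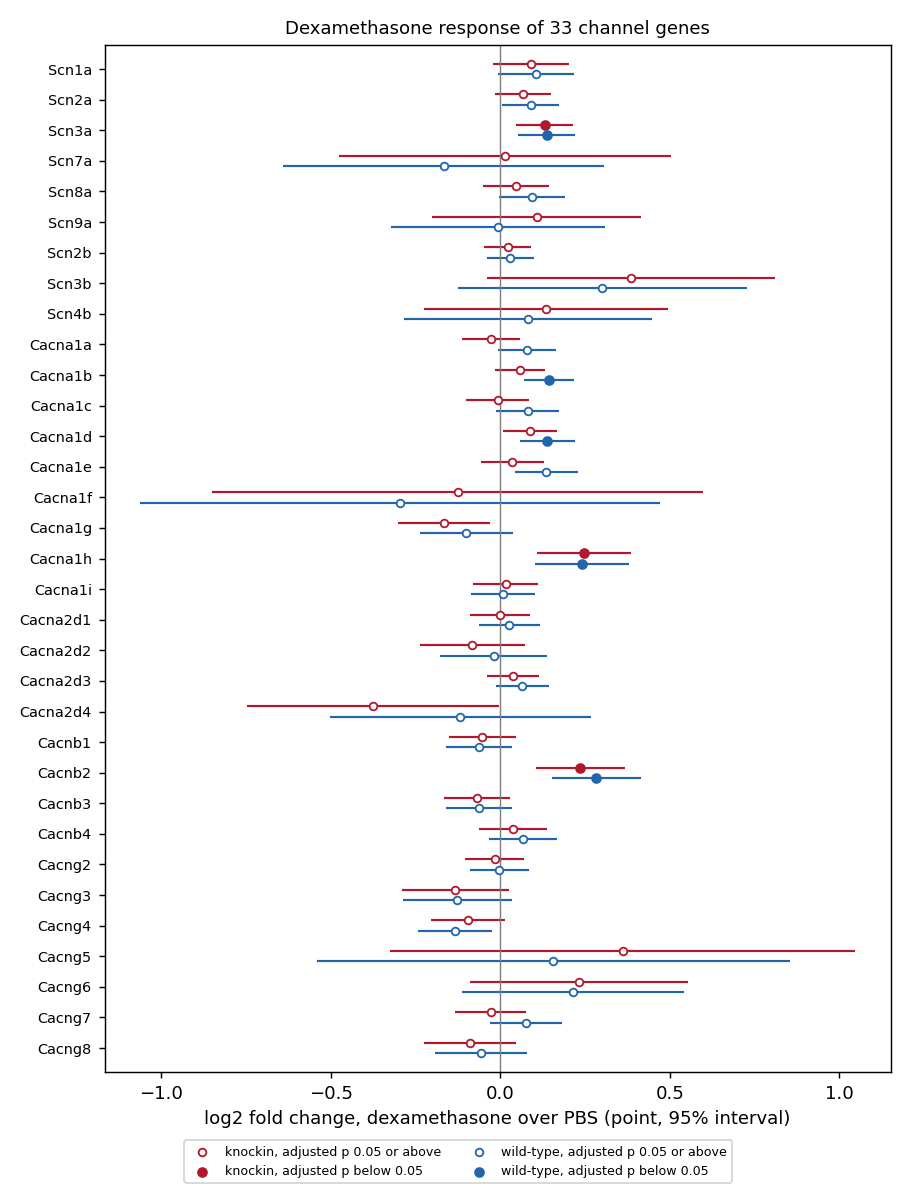
log2 fold change of Dex over PBS with its 95% interval for 33 of the 35 tested channel genes, knockin above wild-type in each row; filled points have adjusted p below 0.05. Filled points are 3 in knockin and 5 in wild-type mice, all right of 0, and the widest intervals belong to low genes and to Scn3b and Cacng5.

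Groups of all 5 against all 5 libraries did not overlap for 3 of the 35 genes in knockin mice (8.57%, against 8.68% of all genes) and 4 of 35 in wild-type mice (11.4%, against 8.22%), all higher after Dex. Some marker levels moved with the same contrast. Striatum markers summed to 73.1 to 88.8 CPM in knockin Dex and 52.6 to 70.3 CPM in knockin PBS, and to 70.8 to 82.3 CPM in wild-type Dex and 57.0 to 65.8 CPM in wild-type PBS libraries, with 1 of 7 listed genes called higher in knockin mice, and 1 higher and 1 lower in wild-type mice. Of these 7 genes 4 had positive fold changes in each genotype, so the sums did not rise through every gene. Oligodendrocyte precursor markers summed to 209 to 241 CPM in knockin Dex and 187 to 217 CPM in knockin PBS, and to 210.2 to 241 CPM in wild-type Dex and 195 to 211 CPM in wild-type PBS libraries, with 2 of 5 called higher in each genotype. Microglia markers summed to 303 to 324 CPM in knockin Dex and 333 to 380.3 CPM in knockin PBS, and to 308 to 339 CPM in wild-type Dex and 341 to 393 CPM in wild-type PBS libraries, with 2 of 5 called lower in each. The microglia list did not move as a whole: 1 of 5 fold changes was positive in knockin and 3 of 5 in wild-type mice. For the mean response 1 microglia marker was called higher and 2 lower. Of 5 oligodendrocyte markers 1 was called lower in each genotype. Endothelial markers summed to 152 to 182 CPM in knockin Dex and 173 to 206 CPM in knockin PBS, and to 150.5 to 196 CPM in wild-type Dex and 179.5 to 206.5 CPM in wild-type PBS libraries, with 2 of 5 called lower in knockin mice and 3 of 5 lower for the mean response. Of 5 mural markers 1 was called lower in knockin mice, and of 5 astrocyte markers 1 was called higher and 1 lower in each genotype. Thalamus and habenula markers summed to 123 to 154 CPM in knockin Dex and 114 to 131 CPM in knockin PBS, and to 131 to 143 CPM in wild-type Dex and 104 to 132 CPM in wild-type PBS libraries, with 1 of 6 tested called higher in each genotype and Gbx2 under 10 counts in every library. Of these 6 tested markers 3 had positive fold changes in knockin and 2 in wild-type mice. None of the striatum, precursor and microglia markers was under 10 counts in every library, and their part in the channel results was not tested. Of the 5 neuron markers, edgeR called 0 in either genotype, with 0 at an unadjusted p below 0.05. Interneuron and dentate granule markers had 0 called in either genotype, but some were at an unadjusted p below 0.05 (edgeR). These were 2 of 5 interneuron markers in knockin and 1 of 5 in wild-type mice, and 2 of 4 dentate granule markers in each. Of all 18648 genes, 3882 in knockin and 3712 in wild-type mice were at that level. For the mean response, all 5 interneuron markers had positive fold changes and 1 was called higher. Among 4 dentate granule markers 1 was called higher and 1 lower for that response, where 18.2% of all genes were called. The part of these neuron lists in the channel results was not tested.

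Proteins that bind the channels were read from lists of 16 sodium channel partners, 16 calcium channel partners, 16 genes of the AMPA receptor complex and 5 of the sodium leak channel, all tested. Their calls come from the main fit alone and were not checked under the alternatives used for the channel genes. Among sodium channel partners, 3 were higher and 1 lower after Dex in knockin mice, and 4 higher and 1 lower in wild-type mice (25% and 31.2% called, against 10% and 9.21% of all genes, with medians of -0.02 and 0.04). Nedd4l, a ubiquitin ligase that removes sodium channels from the membrane, had log2 fold changes of 0.37 ± 0.082 (SE) in knockin and 0.36 ± 0.082 (SE) in wild-type mice (edgeR, adjusted p = 0.00473 and 0.00661). Ank3, whose product ankyrin-G anchors sodium channels at the axon initial segment, rose by 0.13 and 0.18 on the log2 scale in knockin and wild-type mice (adjusted p = 0.0219 and 0.00127). Fgf11, an intracellular fibroblast growth factor homologue of the group that binds sodium channel tails, was lower, at -0.23 ± 0.058 (SE) and -0.26 ± 0.059 (SE) (adjusted p = 0.00973 and 0.00318). Nfasc, the neurofascin of the initial segment and node, was called in wild-type mice at 0.16 ± 0.042 (SE) (adjusted p = 0.0134).

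Among calcium channel partners, 2 were called in knockin mice, both higher, and 3 in wild-type mice, 2 higher and 1 lower (12.5% and 18.8% called, against 10% and 9.21% of all genes, with medians of 0.05 and 0.08). Rims2, an active-zone protein that holds calcium channels near vesicles, was higher in both, at 0.13 ± 0.034 (SE) and 0.12 ± 0.034 (SE) (edgeR, adjusted p = 0.0151 and 0.022). Rrad, a small GTPase that binds calcium beta subunits and lowers the current, had the largest fall of the lists, -1.10 ± 0.251 (SE) in wild-type mice (adjusted p = 0.00413), and -0.65 ± 0.230 (SE) in knockin mice (adjusted p = 0.0771). Stac, an adaptor of L-type channels, had 0.70 ± 0.199 (SE) in knockin mice (adjusted p = 0.0249) and 0.23 ± 0.197 (SE) in wild-type mice (adjusted p = 0.592). The difference of the responses, knockin minus wild-type, was 0.45 ± 0.343 (SE) for Rrad and 0.47 ± 0.280 (SE) for Stac, with unadjusted p of 0.215 and 0.108 (edgeR), and neither passed after adjustment. Akap5, an anchor of kinases and calcineurin at L-type channels, was called in wild-type mice at 0.14 ± 0.043 (SE) (adjusted p = 0.0438).

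Of the AMPA receptor complex, 0 of 16 were called in knockin mice, with 4 at an unadjusted p below 0.05 (edgeR), and 1 of 16 in wild-type mice, the auxiliary subunit Cnih3 at 0.12 ± 0.037 (SE) (adjusted p = 0.0334). In the mean response 3 of 16 were called (18.8%, near the 18.2% of all genes), all higher: Cnih3 (0.09), the receptor subunit Gria2 (0.09) and Shisa7 (0.21), a further auxiliary protein. Of the 5 genes of the sodium leak channel, 0 were called in knockin mice, with 0 at an unadjusted p below 0.05, and 2 in wild-type mice, Unc80 at 0.14 ± 0.043 (SE) and Nalf1 at 0.13 ± 0.034 (SE) (edgeR, adjusted p = 0.0432 and 0.0113), where 10% and 9.21% of all genes were called in knockin and wild-type mice. In knockin mice they had 0.09 ± 0.043 (SE) and 0.06 ± 0.034 (SE), and the difference of the responses was -0.05 ± 0.061 (SE) for Unc80 and -0.07 ± 0.048 (SE) for Nalf1 (edgeR, unadjusted p = 0.421 and 0.144).

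Between genotypes no channel gene was called. Under PBS, 0 of 35 passed and 0% of all 18648 genes did, with 1 channel gene and 3.61% of all genes at an unadjusted p below 0.05. Under Dex, 0 of 35 and again 0% of all genes passed, with 1 channel gene and 4.44% of all genes at an unadjusted p below 0.05. DESeq2 and limma-voom also called 0 channel genes in each, and no channel gene had groups without overlap, against 0.67% of all genes under PBS and 0.788% under Dex.

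The genes at an unadjusted p below 0.05 were Cacna2d3 under PBS and Cacna1b under Dex. Cacna2d3, an alpha2delta subunit that helps channels reach the presynaptic membrane, had 116, 115, 115, 108 and 126 CPM in knockin PBS mice, against 112, 105, 108, 108 and 110.3 CPM in wild-type PBS mice. The groups overlapped through knockin PBS replicate 4, the lowest of its group, and the log2 fold change was 0.09 ± 0.038 (SE) (edgeR, unadjusted p = 0.0238, adjusted p = 1). For Cacna1b the Dex libraries given above were mostly lower in knockin mice, with knockin Dex replicate 3 inside the wild-type range, at -0.09 ± 0.036 (SE) (edgeR, unadjusted p = 0.0156, adjusted p = 1).

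The intervals bound what these data can hide. For the 29 genes of at least 1 CPM per kb, fold changes of knockin over wild-type ran from -0.08 to 0.12 under PBS and from -0.09 to 0.17 under Dex on the log2 scale. Of their 95% intervals, 25 under PBS and 26 under Dex lay within 0.26 of 0, and 28 and 27 within 0.5. The widest belonged to Cacng5, whose bound reached 0.74 under PBS and 0.85 under Dex. Below 1 CPM per kb the bounds were wider: the low gene Scn7a averaged 2.87 ± 0.718 CPM in knockin PBS and 4.05 ± 1.31 CPM in wild-type PBS mice (SD, n = 5 each), a log2 fold change of -0.46 with a 95% interval of -0.94 to 0.03.

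**Figure D4:**
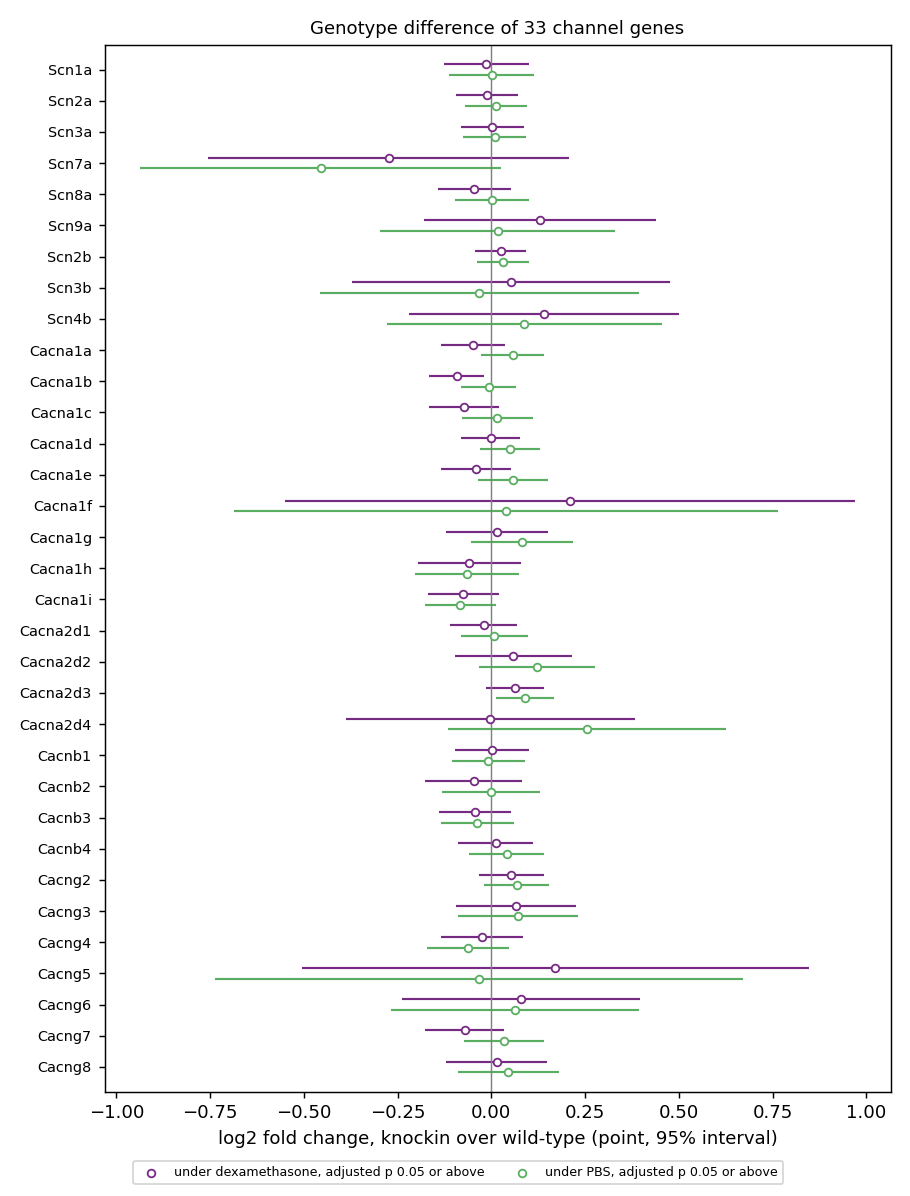
log2 fold change of knockin over wild-type with its 95% interval for 33 of the 35 tested channel genes, under Dex above under PBS in each row. All points are open, for adjusted p of 0.05 or above, and the intervals of Cacna2d3 under PBS and Cacna1b under Dex are the ones that leave out 0.

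No difference of the response between genotypes was called for a channel gene. By edgeR's quasi-likelihood test of the difference, knockin minus wild-type, 0 of 35 were called and 0% of all genes, with 0 channel genes and 2.83% of all genes at an unadjusted p below 0.05, and DESeq2 and limma-voom called 0 as well. For the genes that were higher after Dex in both genotypes the difference was -0.05 ± 0.089 (SE) for Cacnb2, 0.01 ± 0.094 (SE) for Cacna1h and -0.01 ± 0.058 (SE) for Scn3a, with 95% intervals of -0.23 to 0.14, -0.19 to 0.20 and -0.12 to 0.11. Of the 29 genes of at least 1 CPM per kb, 25 intervals of the difference lay within 0.26 of 0. A p that misses the threshold does not show that the responses are alike, and these intervals give the size of difference that remains possible.

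Within groups, some channel genes varied together from library to library. After each group's mean was removed on a log2(CPM + 1) scale, 2 of 595 pairs of the 35 genes were correlated at a Benjamini-Hochberg adjusted p below 0.05 for Pearson's r (permutation within groups, 100000 draws). Of these, Scn3b and Cacng5 had r = 0.932 and Spearman's rho = 0.946 over 20 libraries (permutation p = 1e-05 for each, the smallest the draws can give, adjusted p = 0.00595 for each). Without the 2 libraries farthest from the median of Scn3b r was 0.93, and it was 0.809 among the 10 Dex and 0.964 among the 10 PBS libraries.

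Knockin Cacng5 was 12.7, 11.9, 7.06, 13.8 and 10.3 CPM after Dex and 9.90, 4.29, 5.15, 13.3 and 11.5 CPM after PBS. Wild-type Cacng5 was 7.41, 9.14, 12.1, 10.3 and 11.2 CPM after Dex and 11.8, 13.7, 4.16, 6.55 and 8.76 CPM after PBS. The lowest values were those of knockin PBS replicates 2 and 3 and wild-type PBS replicate 3, the same libraries that were lowest in Scn3b. The within-group coefficient of variation was 18.6% for Scn3b and 32.3% for Cacng5, against 18.1% for Scn4b and 3.06% for Scn2b. Scn3b and Cacng5 lie on different chromosomes (9 and 11). CA1 pyramidal cell markers summed to 579.7 and 615 CPM in knockin PBS replicates 2 and 3 and 608 CPM in wild-type PBS replicate 3, against 601 to 701 CPM in the other PBS libraries. In the same order, CA2 and CA3 markers summed to 228, 188 and 208 CPM, against 212 to 244 CPM in the other PBS libraries. Dentate granule markers summed to 326, 264 and 332 CPM, against 292 to 391 CPM. The part of cell makeup in the pattern of Scn3b and Cacng5 was not tested.

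**Figure D5:**
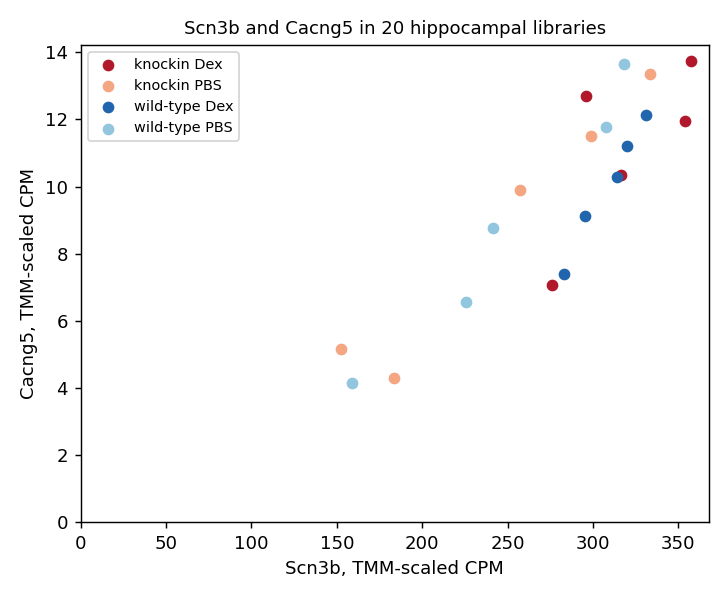
Scn3b (x) against Cacng5 (y) in TMM-scaled CPM, 1 point per library in 4 colours, with both axes starting at 0. The 3 PBS libraries at 152 to 183 CPM of Scn3b are also the lowest in Cacng5, at 4.16 to 5.15 CPM.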

How the data were processed

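Poly(A) RNA of 20 hippocampi was sequenced as 75-base paired ends. The authors deposited unnormalized gene counts, with read pairs counted by featureCounts 2.0.6, per the file headers, without a strand option and without counting multiply mapped or ambiguous reads. STAR 2.5.1 and mm39 are given in the submitters' processing notes. Names were given to 51884 of 57126 gene identifiers from a mouse annotation table. Within-group library pairs differed by 2.55 to 12.6 in chi-square per gene, so none was taken as a duplicate.

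Genes were filtered with filterByExpr (minimum count 10, minimum total 15), scaled by TMM and fitted with edgeR 4.0.16 (robust quasi-likelihood) in R 4.3.3, with all 20 libraries and 1 term per group, and p-values were adjusted by Benjamini-Hochberg over 18648 genes. Scripts were tested on simulated data. Alternatives were DESeq2 1.42.0, limma 3.58.1 (voom with quality weights), other scaling and filters, the compared libraries alone, a replicate block, and each library left out. Leaving out libraries with liver or choroid plexus RNA was chosen from an earlier analysis of these data. Nothing in the labels ties replicate numbers across groups. The members, gene lists and tests were chosen with earlier results of these data known. Any member could be named, and of the lists of binding partners each called gene; values per library are given for each member called in a comparison or at an unadjusted p below 0.05 between genotypes. Those of Scn3b, Cacng5 and Cacna1e were added after they were seen. Results of some genes that enter the counts are not reported here.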

Additional observations from a re-analysis of the deposited data

Results flagged for a closer look

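In 9 of 132 groups of 5 libraries (33 genes in 4 groups), 1 library stood apart from the other 4 by Dixon's criterion (gap over range above 0.71), and chance flags about 1 in 20 groups. Values are TMM-scaled CPM. In knockin Dex mice, replicate 1 was low in Scn2b (307.2, others 319 to 322), replicate 2 was low in Cacna1d (61.33, others 64.0 to 64.6) and in Cacna1f (0.0937, others 0.456 to 0.503), and replicate 3 was high in Cacna1i (84.41, others 72.2 to 75.7). In knockin PBS mice, replicate 3 was low in Cacnb2 (55.78, others 68.6 to 69.8), and replicate 2 was high in Cacng2 (79.49, others 71.2 to 73.5). In wild-type Dex mice, replicate 4 was low in Cacng7 (111.3, others up to 136). In wild-type PBS mice, replicate 5 was high in Scn4b (29.16, others 22.1 to 23.9) and replicate 4 was high in Cacna1d (62.66, others 56.3 to 57.6).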

How the results depend on the processing

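No called fold change of a channel gene reversed its direction under any alternative, and neither did Cacna2d3 under PBS or Cacna1b under Dex between genotypes. Uncalled fold changes did: per alternative, up to 4 of 32 turned sign in knockin mice, 5 of 30 in wild-type mice, 5 of 28 for the mean response, 8 and 6 of 34 between genotypes under PBS and Dex, and 12 of 35 for the difference of responses. The largest that turned were 0.12, 0.29, 0.21, 0.09, 0.07 and 0.20 in size on the log2 scale, in that order. Among them were Cacng5 in wild-type mice without wild-type PBS replicate 3, and the differences of responses of Cacnb2 without wild-type Dex replicate 1, and of Cacna1h, Scn3a and Scn3b without several single libraries. The count of called channel genes was 3 in knockin mice and fell to 1 with no filter on low counts and to 1 without knockin Dex replicate 2 and wild-type PBS replicate 4 together. In wild-type mice it was 5, and 2 with no filter and 3 with the compared libraries alone. For the mean response it was 7, and 11 without wild-type PBS replicates 1 and 2 together, where Scn1a, Scn3b, Cacnb1 and Cacng3 were also called. Leaving out single libraries gave 1 to 3 in knockin mice (1 without knockin PBS replicate 1), 2 to 6 in wild-type mice (2 without wild-type PBS replicate 3 or wild-type Dex replicate 1, and 3 without wild-type PBS replicate 5 or wild-type Dex replicate 5) and 5 to 8 for the mean response. The counts between genotypes and for the difference of responses were 0 under every alternative run. The causes were not tested, and the partner and marker genes were not read under the alternatives.

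Between same-numbered libraries, 30 correlations of their deviations from group means ran from -0.133 to 0.308, and 6 were over 0.1. Differently numbered libraries were not correlated, so these values cannot decide whether the numbers mark pairs. With the replicate block the counts were 3 in knockin mice, 5 in wild-type mice, 6 for the mean response and 0 for the others, and Cacng4 was at adjusted p = 0.0511 (edgeR). Genes under 1 CPM per kb had a median SE of 0.171 on the log2 scale between genotypes under PBS, against 0.0479 for the higher genes, which limits what could be seen.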

Other observations

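Genes whose deviations from the group means were most like those of Scn3b over the 20 libraries were listed among 10209 genes of at least 10 CPM on average, a comparison chosen after its values were seen. Ppp1r2 had r = 0.976, Wipf3 0.973, Ppm1e 0.956, Ociad2 0.954 and Spink8 0.951, and 47 genes were above 0.9. In the opposite direction Plppr3 had r = -0.931, Tmem132a -0.928 and Stmn1 -0.923, and 7 genes were below -0.9. These are descriptions over libraries that share tissue and dissection.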
